A study of Mus musculus with 8 samples.

Results

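The RNA of s4U-fed mouse blood progenitor cultures without Alkbh5 was compared, gene by gene, with that of wild-type cultures. All genes counted in the 6 fed libraries were taken, and the 14051 of 27710 genes that reached 1 CPM (counts scaled to the library's total) in at least 3 of them were tested. The series holds 8 libraries, and the other 2 are 1 library per genotype that received no agent. All cells came from mouse bone marrow from which mature, lineage-marked cells had been removed, and all grew in medium with cytokines, among them SCF and Flt3L at 50 ng/mL each and IL3 at 10 ng/mL. The wild-type (WT) group has 3 libraries with the strain label WT and no allele named. The Alkbh5-deficient group has 3 libraries from Vav-iCre+; Alkbh5fl/fl cells, in which loxP sites flank part of Alkbh5 and a Cre recombinase driven by the blood-cell promoter Vav removes it; cells of other lineages in the marrow would keep the gene. Both groups received 100 µM 4-thiouridine (s4U), a uridine analogue that is built into RNA made during the feeding, for 2 h. Whether the WT cells carried the Cre or a floxed allele is not given in the labels. The libraries carry the numbers 1 to 3 in each genotype, which gives 3 same-numbered pairs.

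N6-methyladenosine (m6A) is a methyl mark that the METTL3-METTL14 complex adds to adenosines of messenger RNA, mostly in a short sequence context near the end of the coding region. Reader proteins of the YTH family bind the mark and direct the transcript to splicing, export, translation or decay, and ALKBH5 and FTO are the enzymes that take the methyl group off again. ALKBH5 needs iron and 2-oxoglutarate to work, as do the other members of its enzyme family.

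The 6 libraries held between 5723245 and 8404565 gene counts. The defining markers of progenitors were present in each one: Kit, the stem cell factor receptor, lay between 69.8 and 82.8 CPM, Myb between 287 and 377 CPM, and the myeloid granule enzyme Mpo between 3892 and 7808 CPM. The pan-blood marker Ptprc lay between 163 and 374 CPM. Replicate 1 of both genotypes stood apart in cells of other types: the macrophage gene C1qa measured 1.6 and 3.9 CPM there against 39.1 to 48.2 CPM in the other 4 libraries, and the collagen gene Col1a1 2.5 and 1.9 CPM against 188 to 1139 CPM. WT replicate 3 stood apart in the ribosomal-repeat gene Gm26917, which took 14.2% of its gene counts against 6.33% to 8.34% in the other fed libraries. In such bulk RNA, fewer cells of a type and less RNA per cell cannot be told apart. Both libraries numbered 2 held Xist, an RNA of female cells, and no Y-linked Ddx3y. Those numbered 1 or 3 held Ddx3y with 0 to 2 Xist counts. Libraries numbered 2 thus differ in sex from the others within each genotype. The labels do not tie replicates to animals. P-values cover only the spread between these samples, which includes this sex difference and may in part be technical.

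Alkbh5 itself was nearly absent from every deficient library. The gene (ENSMUSG00000042650.3, GRCm38 chromosome 11, 60536381 to 60558512, plus strand) measured 191, 168 and 200 CPM in WT replicates 1 to 3 and 0, 0.134 and 0.123 CPM in deficient replicates 1 to 3. The groups lay far apart, with 3706 counts in the WT libraries together and 2 in the deficient ones. The scaled ratio was 0.0501% of WT, with an exact 95% counting interval of 0.00606% to 0.181%. Alkbh5 fell in edgeR's quasi-likelihood test with an adjusted p of 6.47e-06, and of 1.04e-05 with the replicate number as a block.

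Alkbh5 was also the sole gene past the threshold. At an adjusted p under 0.05 in edgeR, 1 gene (0.00712% of those tested) was lower and 0 were higher, in the plain fit and with the block. At an unadjusted p under 0.05, the plain fit held 104 lower genes (0.74%) and 63 higher ones (0.448%), 1.19% of genes in all. The block took these to 220 (1.57%) and 150 (1.07%), 2.63% in all. For a gene given with such a p, the p is a value and not a call. DESeq2's Wald test called 2 lower genes and 0 higher ones, Alkbh5 and Ogdh.

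Ogdh encodes the first enzyme of the 2-oxoglutarate dehydrogenase complex, which turns 2-oxoglutarate into succinyl-CoA in the TCA cycle. The gene lies on chromosome 11 (6291633 to 6356642, plus strand). It measured 235, 207 and 245 CPM in WT replicates 1 to 3 and 90.3, 112 and 95.9 CPM in deficient replicates 1 to 3. Every deficient library lay below every WT library, and the deficient mean was 43.5% of the WT mean. The log2 fold change was -1.20 with a standard error of 0.16 and an unadjusted p of 4.92e-05, which gave an adjusted p of 0.346 in edgeR's quasi-likelihood test and 0.336 with the block. DESeq2's Wald test put the adjusted p at 6.70e-07, so the call rests on the test used. Of the other enzymes of the complex, Dlst, the second, had a log2 fold change of -0.09 with a 95% interval of -0.42 to 0.24, and Dld, the third, 0.18 with an interval of -0.36 to 0.72.

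**Figure D1:**
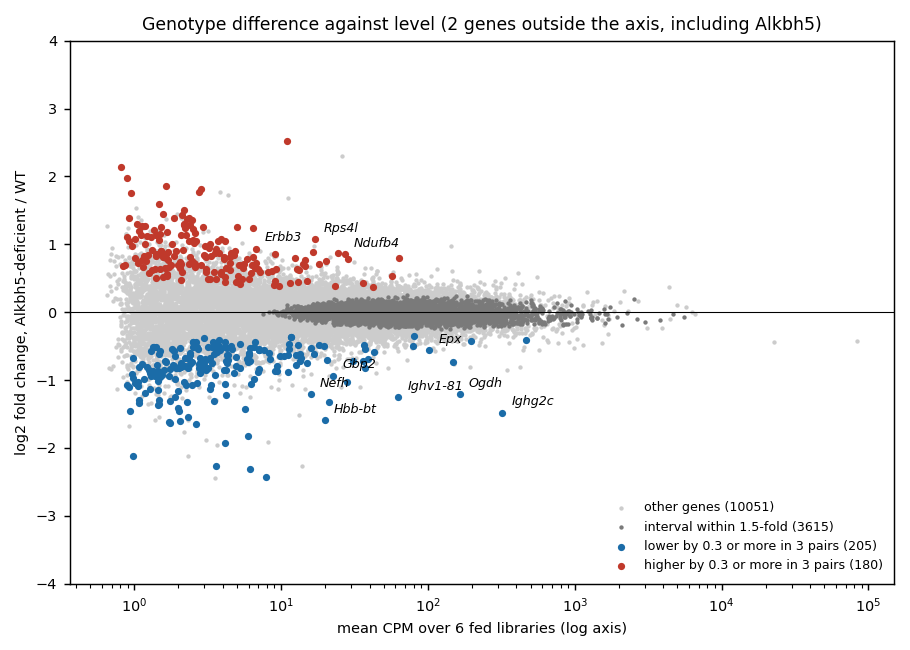
Log2 fold change (Alkbh5-deficient against WT, y axis) of each tested gene against its mean level in the 6 fed libraries (CPM, log axis), with some of the named genes marked. Dark grey points are the 3615 genes held within 1.5-fold, and blue and red points the 205 lower and 180 higher genes that differed by 0.3 or more in all 3 pairs. Ogdh and Ighg2c lie below -1 at high levels and the cloud widens toward low levels. The y axis leaves out 2 genes beyond plus or minus 4, Alkbh5 among them.

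The 3 pairs differed in how far their libraries lay apart. The median size of a log2 ratio within a pair was 0.21 in pair 1, 0.18 in pair 2 and 0.41 in pair 3; pair 3 was the widest. Across the 7030 genes at 20 CPM or more, the ratios of pairs 1 and 3 had a Spearman correlation of 0.36, those of pairs 1 and 2 of -0.05, and those of pairs 2 and 3 of -0.45. These points are genes of the same 6 libraries and are no independent replicates. Over all genes, pair 2 thus ran against pair 3 more than with it.

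In all 3 pairs, 1744 genes (12.4%) were lower in the deficient library and 1557 (11.1%) were higher. Neither share is above what signs drawn at random in each pair would give. A shift of at least 0.3 on the log2 scale, or 1.23-fold, in each pair left 205 lower genes (1.46%) and 180 higher genes (1.28%). These are the pair-consistent genes. They were picked for this pattern, so their pair ratios describe them and support nothing. The cut is a sharp one through a smooth range: Gm19337 and Gm44280 had a smallest pair ratio of 0.3001 and were counted, and Lmbr1 and Hr had 0.2993 and were not.

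Most pair-consistent genes were weakly expressed. The median level was 3.33 CPM for the lower genes and 2.57 CPM for the higher ones, against 20.04 CPM over all genes tested. Under 5 CPM stood 136 of the lower and 133 of the higher genes, and at 100 CPM or more 6 lower and 0 higher genes. Immunoglobulin genes made up 19 of the 205 lower genes (9.27%) and 4 of the 180 higher genes (2.22%), against 1.05% of all genes tested. Chromosome 11, which carries Alkbh5, held 25 of the lower genes (12.2%) and 4 of the higher ones (2.22%), against 7.78% of all tested. At 5 CPM or more the lower genes of chromosome 11 were Alkbh5, Ogdh, Nefh, Ddx56, Polm, Hba-a1, Cenpv, Rangrf, Epx, Dhx58 and Rnf213. Ogdh, Ddx56 (6258919 to 6267772), Polm and Nefh lie in 1 stretch near the start of that chromosome, and Cenpv lies near Alkbh5. Genotype and any difference in the DNA around Alkbh5 between the strains cannot be told apart here.

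The letters GGACT, the most common context of m6A, occurred at much the same density in all groups. The longest coding transcript of a gene held a median of 1.05 such sites per 1000 bases over all genes tested, 1.09 in the lower genes, 0.973 in the higher genes and 1.03 in genes whose 95% interval lay within 1.5-fold (held genes). Lower genes had shorter transcripts than the tested genes as a whole, with a median of 2412 bases against 3152, and more GC, with 54.0% against 50.1%. The higher genes had a GC content of 47.3%. The sites are letter matches only; methylation was not measured.

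**Figure D2:**
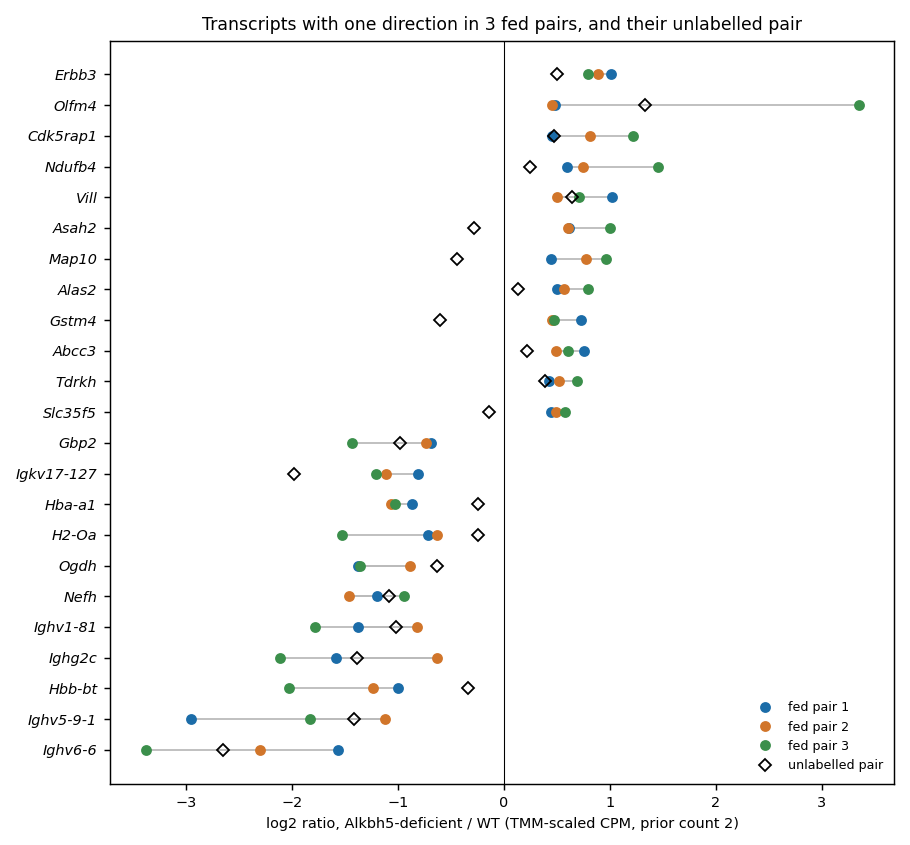
Log2 ratio of the deficient over the WT library (x axis) in each same-numbered fed pair (coloured points) and in the unlabelled pair (open diamonds), for the named lower and higher genes. The 3 coloured points of each gene lie on one side of 0 because the genes were chosen so. Their spread shows how far the pairs differ, with Olfm4 at 0.48, 0.45 and 3.35 the widest among the higher genes.

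At 20 CPM or more, where counting noise is small, stood 7030 of the 14051 genes tested. Of these 7030, the lower set held 21 and the higher set 9. Both are smaller shares than the 1.46% and 1.28% over all genes tested. All of these genes were taken after their values were seen. Beside Alkbh5 and Ogdh, the lower ones were 6 immunoglobulin genes (Ighg2c, Ighv1-55, Ighv1-81, Igkv1-117, Igkv14-126, Igkv6-23), the red cell genes Hba-a1 and Cpox, the eosinophil peroxidase gene Epx, the interferon-inducible Gbp2 and Rnf213, the growth factor gene Csf1 and the early response gene Maff. The remaining ones were Ddx56, a nucleolar RNA helicase, Xrcc6, a subunit of the Ku DNA end-binding protein, the transglutaminase gene Tgm2, the phosphomannomutase gene Pmm1, Ptms and Dennd3. The higher ones were Eps8, an actin-capping signalling protein, Vill, a villin relative, Rap2a, a small GTPase, Slfn9 of the Schlafen family, Srp54b, a copy of a signal recognition particle subunit, Ndufb4, Usp3, a histone deubiquitinase, and the zinc finger genes Atmin and Zbed4. None of these but Alkbh5 passed edgeR's adjusted threshold. Csf1 measured 88.9, 28.1 and 38.1 CPM in WT and 53.1, 22.4 and 27.7 CPM in deficient libraries, and its log2 fold change of -0.59 became 0.059 without WT replicate 1.

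Among these, Rnf213, a giant ubiquitin ligase, was the most abundant. It measured 575, 517 and 492 CPM in WT replicates 1 to 3 and 412, 418 and 364 CPM in deficient replicates 1 to 3. The groups did not overlap, and the log2 fold change was -0.41 with a standard error of 0.15 and an unadjusted p of 0.0264. Eps8 measured 56.6, 42.4 and 40.6 CPM in WT and 111, 52.4 and 79.7 CPM in deficient libraries, so that the lowest deficient library lay under the highest WT library. Slfn9 measured 20.5, 19.2 and 12.1 CPM in WT and 37.3, 25.6 and 32.4 CPM in deficient libraries, without overlap. Ddx56 measured 40.9, 41.5 and 50.4 CPM in WT and 29.5, 31.9 and 29.3 CPM in deficient libraries, also without overlap. Over all genes tested, the groups did not overlap in 478 genes with the deficient libraries lower (3.4%) and in 338 with them higher (2.41%).

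Apart from Alkbh5, no gene of the m6A machinery passed the adjusted threshold in edgeR. The summed CPM of the 12 genes of the writer complex lay between 749 and 845 in WT libraries and between 767 and 823 in deficient ones, and their median log2 fold change was 0.02, with 5 of the 12 held within 1.5-fold. Mettl3, the catalytic subunit, measured 22.1, 29.6 and 24.9 CPM in WT and 23.7, 32.9 and 35.2 CPM in deficient libraries, overlapping. Zc3h13, a scaffold of the complex, had a log2 fold change of -0.11 with a 95% interval of -0.55 to 0.33. Of the 13 reader genes, 8 were held within 1.5-fold, among them Ythdc1 at 199 ± 20.9 CPM in WT and 196 ± 35.1 CPM in deficient libraries (mean ± SD, n = 3). Fto, the other m6A demethylase gene, measured 84.6, 76.6 and 91.2 CPM in WT and 70.6, 78.0 and 69.9 CPM in deficient libraries, and its interval of -0.54 to 0.13 includes no difference. Its groups overlapped, since deficient replicate 2 lay above WT replicate 2.

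Beside Ogdh, 4 tested genes are known as reported ALKBH5 targets in blood or tumour cells. Myc, a growth-promoting transcription factor, measured 250, 205 and 378 CPM in WT and 252, 243 and 237 CPM in deficient libraries. Foxm1 and Tacc3, both needed for mitosis, had log2 fold changes of -0.04 (interval -0.54 to 0.46) and 0.06 (interval -0.40 to 0.52). The receptor gene Axl had a log2 fold change of 0.17 with an interval of -1.73 to 2.06, which spans large differences both ways. For each of these genes the WT and deficient libraries overlapped.

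Other metabolic genes were bounded to small differences in part. Of 20 further TCA cycle genes, 4 were lower and 0 higher in all 3 pairs, against 12.4% and 11.1% of all genes tested. Their median log2 fold change was -0.06 (it became positive, at 0.07, without WT replicate 1) and 10 were held within 1.5-fold. Citrate synthase (Cs) averaged 222 ± 22.7 CPM in WT and 205 ± 14.8 CPM in deficient libraries (SD, n = 3). The genes of fatty acid oxidation held 16 of 28, those of ATP synthase and its factors 10 of 18, and those of the pentose phosphate pathway 6 of 11, against 25.7% of all genes tested. Glycolysis was less tightly bounded, with 7 of 26 held. The held share depends on level: it was 43.1% of genes from 20 to 100 CPM and 56.4% at 100 CPM or more. Median levels were 39.1 CPM for fatty acid oxidation, 83.3 for ATP synthase, 96.4 for the pentose phosphate pathway and 104 for glycolysis. Glycolysis thus lay below the share of genes at its level.

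**Figure D3:**
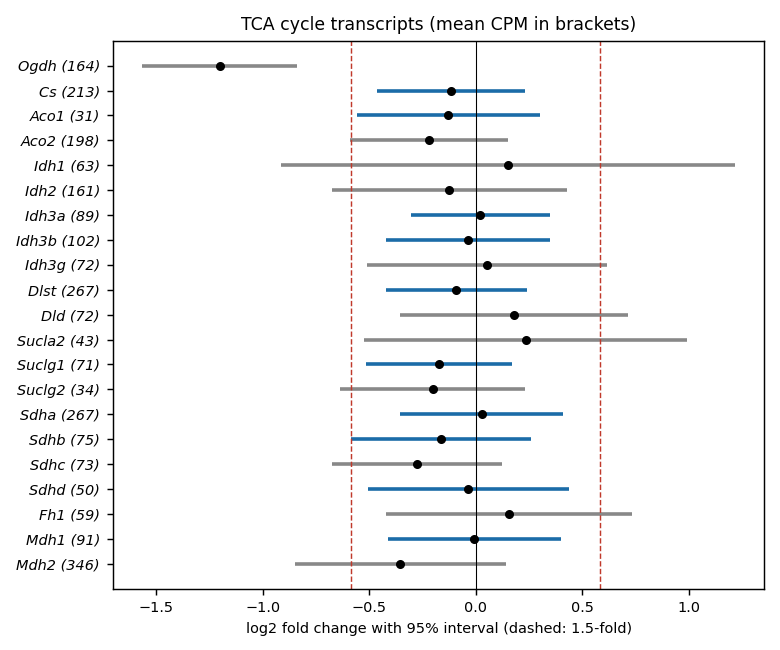
Log2 fold change (x axis) of Ogdh and the other TCA cycle genes with its 95% interval from edgeR's fit (bars) in the fed libraries; dashed lines mark 1.5-fold either way, and blue bars are the 10 genes whose interval lies between them. The Ogdh interval, -1.56 to -0.84, lies outside, and those of the other 20 genes all include 0.

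Single metabolic genes were pair-consistent. Ndufb4, a complex I subunit, measured 33.2, 13.8 and 11.1 CPM in WT and 50.5, 23.2 and 31.1 CPM in deficient libraries, higher in each pair and overlapping between groups. Psph, the last enzyme of serine synthesis, measured 21.1, 15.1 and 20.01 CPM in WT and 14.1, 10.8 and 14.0 CPM in deficient libraries, without overlap and with an unadjusted p of 0.0449 in edgeR. Atpaf1, an assembly factor of ATP synthase, was lower in each pair, with a log2 fold change of -0.51, and Nsdhl, a sterol synthesis enzyme, was higher in each, with 0.70. Ndufb4 has near-identical copies in the genome, and how reads were shared among them is not stated.

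Interferon-stimulated genes, which cells switch on against viruses, were lower in most members. Of 41 tested members, 36 had a negative log2 fold change, against 50.1% of all genes tested. In all 3 pairs 21 of 41 (51.2%) were lower, against 12.4%, and 0 were higher, against 11.1%. The median log2 fold change was -0.36, and the median within the pairs was -0.48, -0.07 and -0.42, with pair 2 the closest to 0. At an unadjusted p under 0.05 stood 6 members and past the adjusted threshold 0. The summed CPM of the list, 1078 to 1418 in WT and 904 to 1118 in deficient libraries, overlapped. Leaving out any 1 library left the median negative, between -0.24 and -0.41.

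Gbp2, an interferon-induced GTPase that attacks the vacuoles of microbes, had the largest pair-consistent difference of the list above 5 CPM. It measured 37.7, 19.5 and 31.7 CPM in WT and 23.2, 11.6 and 11.6 CPM in deficient libraries. Deficient replicate 1 overlapped with WT replicate 2, and the log2 fold change was -0.93 with a standard error of 0.35 and an unadjusted p of 0.0268, or 0.00217 with the block. Oas1a, which makes the messenger that activates RNase L, measured 23.1, 18.1 and 9.06 CPM in WT and 11.6, 13.8 and 5.42 CPM in deficient libraries, with overlap. Dhx58, the RNA sensor LGP2, measured 22.3, 14.8 and 13.6 CPM in WT and 13.7, 10.95 and 7.02 CPM in deficient libraries. Its groups overlapped, with deficient replicate 1 just above WT replicate 3.

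Other members differed by less. Mx1, an antiviral GTPase, measured 16.5, 15.5 and 15.7 CPM in WT and 14.5, 13.8 and 13.8 CPM in deficient libraries, a shift too small for the 0.3 rule but the same in each pair. Gbp3 had a log2 fold change of -0.10 with an interval of -0.44 to 0.23. Both were picked after their values were seen, to show the range of the list.

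Interferon-stimulated genes are switched on through a short element bound by interferon-regulated factors. The core of that element, a GAAA, any 2 bases and a further GAAA, was searched on both strands of the 250 bases before the RefSeq gene start (GRCm38.p6). It occurred in 16 of the 31 list members with an entry (51.6%), in 936 of 27025 genes with one (3.46%) and in 322 of 9590 tested genes (3.36%). Of the other pair-consistent genes, 5 of 104 lower ones (4.81%) and 3 of 101 higher ones (2.97%) held it, which is near the share of all genes. The windows of Gbp2 (chr3:142620413-142620662, plus strand) and Oas1a (chr5:120907526-120907775, minus strand) are shown because both genes were pair-consistent, with the matched bases in capitals. The Gbp2 match lies on the strand opposite to the gene, from 59 bases before the start, and the Oas1a stretch holds 2 overlapping matches, the farther one starting 20 bases before the start.
Gbp2: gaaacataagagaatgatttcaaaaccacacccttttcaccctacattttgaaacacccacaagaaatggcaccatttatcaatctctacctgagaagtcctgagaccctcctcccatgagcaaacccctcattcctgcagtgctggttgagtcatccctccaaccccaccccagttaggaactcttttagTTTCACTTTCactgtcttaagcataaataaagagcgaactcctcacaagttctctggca
Oas1a: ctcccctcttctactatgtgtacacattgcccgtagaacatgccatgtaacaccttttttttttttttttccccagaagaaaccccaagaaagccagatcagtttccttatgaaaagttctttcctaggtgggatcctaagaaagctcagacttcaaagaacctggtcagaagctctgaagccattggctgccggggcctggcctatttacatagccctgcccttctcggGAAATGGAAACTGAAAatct
A match is a description of the letters, and factor binding was not measured.

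Immediate early genes, which cells switch on within minutes of a stimulus, were also lower in most members. Of 38 tested, 32 had a negative log2 fold change, against 50.1% of all genes tested. In all 3 pairs 16 were lower, against 12.4%, and 1 was higher, against 11.1%. The median log2 fold change was -0.22. The medians within the pairs were -0.18, -0.10 and -0.42. Egr1, a zinc finger factor of the response, measured 502, 447 and 636 CPM in WT and 398, 374 and 342 CPM in deficient libraries. Its groups did not overlap, and the unadjusted p was 0.020 in edgeR. Fosb measured 205, 211 and 233 CPM in WT and 153, 183 and 166 CPM in deficient libraries, again without overlap, and Maff was the 1 member that was pair-consistent. Others were level: Jun averaged 508 ± 16.6 CPM in WT and 493 ± 29.5 CPM in deficient libraries (SD, n = 3), and Mcl1, which protects cells from apoptosis, 657 ± 78.4 and 667 ± 131 CPM. In all, 14 of the 38 were held within 1.5-fold. Egr1 and Fosb were picked after their values were seen.

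**Figure D4:**
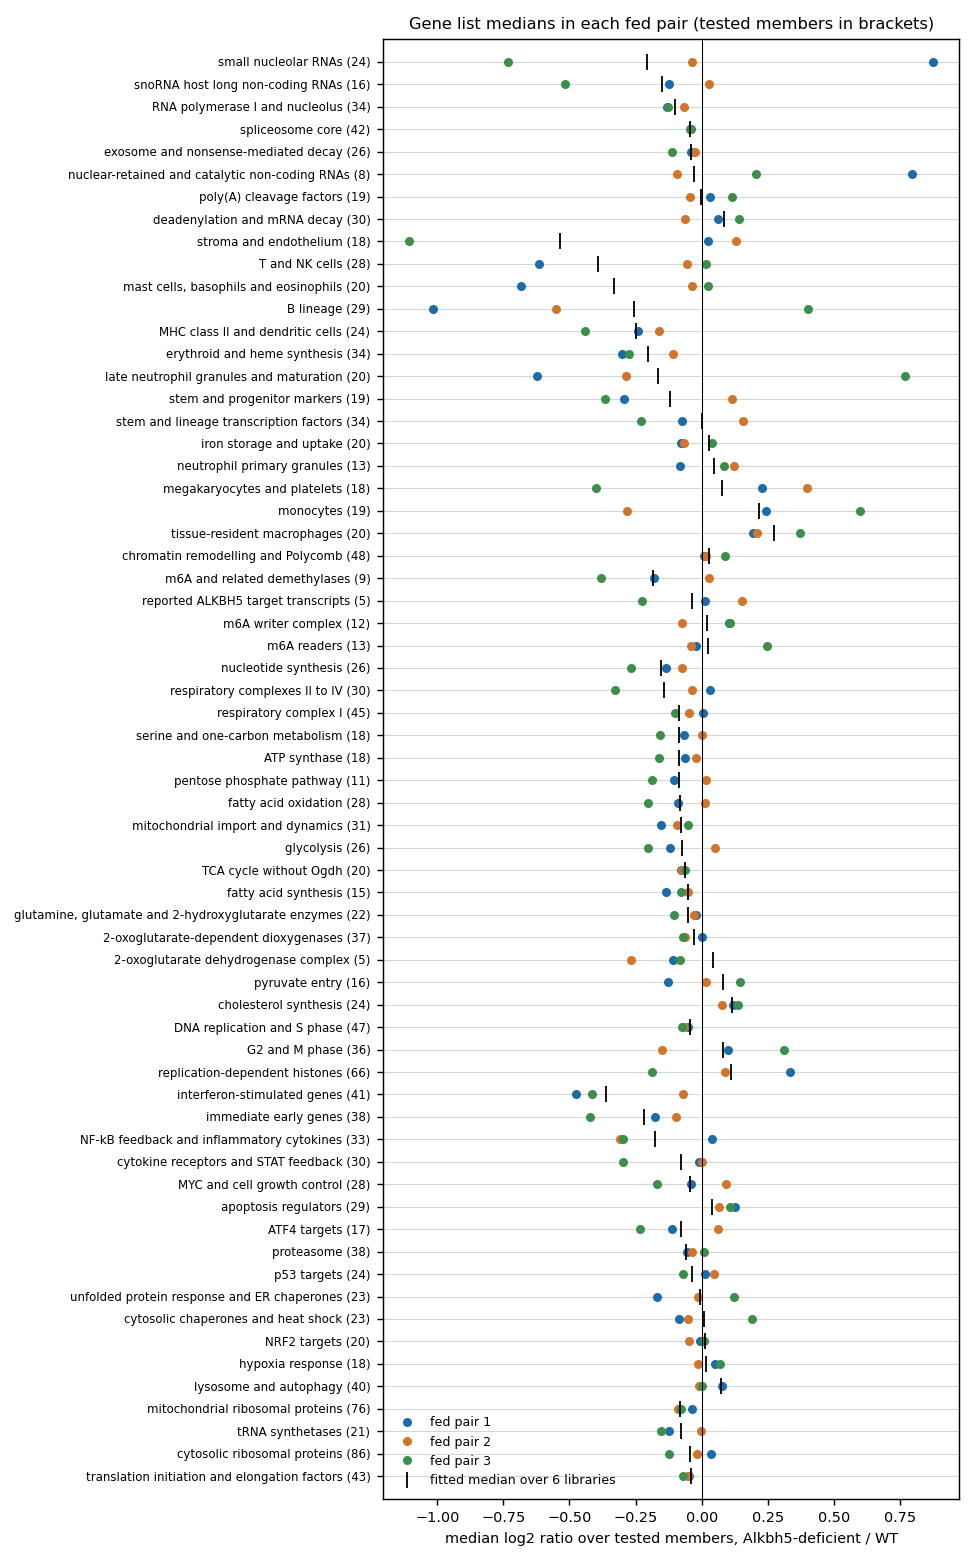
Median log2 ratio (x axis) over the tested members of each of 64 gene lists (y axis, number of members in brackets) in each same-numbered fed pair (points). Interferon-stimulated genes lie at -0.48, -0.07 and -0.42, macrophage genes at 0.19, 0.21 and 0.37, and the spliceosome list at -0.04 in each pair. Black ticks are the medians of the fitted log2 fold changes over the 6 libraries.

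Immunoglobulin genes, 9.27% of the pair-consistent lower genes against 1.05% of all genes tested, varied widely from library to library. Ighg2c, the constant region of the IgG2c heavy chain, measured 891, 217 and 306 CPM in WT replicates 1 to 3 and 297, 140 and 70.6 CPM in deficient replicates 1 to 3. The groups overlapped, since deficient replicate 1 lay above WT replicate 2; the log2 fold change was -1.48 with a standard error of 0.62. Ighv1-81, a heavy chain variable segment, measured 55.0, 107 and 103 CPM in WT and 21.1, 60.2 and 29.8 CPM in deficient libraries. Ighv6-6 measured 7.86, 22.9 and 9.06 CPM in WT and 2.47, 4.41 and 0.616 CPM in deficient libraries, without overlap. Ighv5-9-1 was likewise lower without overlap, with 17.7, 4.10 and 9.06 CPM against 2.03, 1.74 and 2.34 CPM. DESeq2 with the block called 7 lower genes, 4 of them immunoglobulin genes.

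Grouped after their values were seen, 46 of 67 heavy variable segments had a negative log2 fold change, with a median of -0.50, and 48 of 65 kappa variable segments, with a median of -0.40. The median over the heavy segments was -0.88, -0.23 and -0.20 in pairs 1 to 3, all of one sign. Over the kappa segments it was -0.67, -0.01 and 0.23, so for these the pairs did not share a direction. Summed CPM of the heavy variable segments was 879, 792 and 481 in WT and 558, 757 and 264 in deficient libraries. Ebf1, a B lineage transcription factor, lay in the same libraries at 3.9, 51.7 and 23.2 CPM in WT and 1.7, 37.3 and 43.5 CPM in deficient ones. Of 29 B lineage genes, 7 were lower and 0 higher in all pairs, against 12.4% and 11.1% of all genes tested, and their median log2 fold change of -0.26 became positive, at up to 0.22, without WT replicate 2 or deficient replicate 1. The part of B cell content in the immunoglobulin values was not tested. Some variable segments are close copies of others, so values of single segments are uncertain.

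Red cell genes pointed in both directions. Hba-a1 (chromosome 11, 32283511 to 32284465), an alpha globin gene, measured 18.5, 54.8 and 39.8 CPM in WT and 10.0, 26.0 and 19.5 CPM in deficient libraries. Hbb-bt, an adult beta globin gene, measured 7.53, 33.9 and 48.0 CPM in WT and 3.63, 14.3 and 11.6 CPM in deficient libraries. Both were lower in each pair, and for both the groups overlapped. Their near-identical copies were not lower in every pair. Hba-a2 measured 16.4, 18.0 and 24.5 CPM in WT and 9.7, 28.2 and 16.6 CPM in deficient libraries. Hbb-bs measured 11.95, 18.3 and 15.1 CPM in WT and 21.9, 22.6 and 14.5 CPM in deficient libraries. How reads were shared between the copies is not stated, and the single values are uncertain. Summed globin CPM was 54.4, 125 and 127 in WT and 45.3, 91.1 and 62.2 in deficient libraries. In the unlabelled pair the sum went the other way, with 84.8 CPM in WT and 96.5 CPM in the deficient library.

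Single genes of heme synthesis pointed in both directions. Cpox, which acts late in the pathway, measured 143, 252 and 278 CPM in WT and 108, 202 and 190 CPM in deficient libraries, lower in each pair. Alas2, its first enzyme in red cells, was higher in each pair, with 1.96, 6.49 and 4.34 CPM in WT and 2.90, 9.75 and 7.76 CPM in deficient libraries. Of 34 erythroid and heme genes, 14 were lower and 2 higher in all pairs, against 12.4% and 11.1% of all genes tested, and the median of -0.20 became positive, at 0.08, without deficient replicate 1. The red cell master factor Klf1 measured 17.7, 32.1 and 35.7 CPM in WT and 13.7, 34.3 and 26.9 CPM in deficient libraries, with overlap.

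Genes of other immune cells added a few members each. Of 24 genes of MHC class II and dendritic cells, 9 were lower and 1 higher in all pairs, against 12.4% and 11.1% of all genes tested, with a median of -0.25. H2-Oa, which restrains peptide loading of MHC class II, measured 8.02, 5.12 and 12.3 CPM in WT and 4.79, 3.21 and 4.07 CPM in deficient libraries, without overlap. Cd74, the MHC class II chaperone, lay between 197 and 285 CPM in WT and between 172 and 228 CPM in deficient libraries. Of 28 T and NK cell genes, 9 were lower and 2 higher in all pairs, against the same shares. Their median log2 fold change was -0.39, below the -0.36 of the interferon-stimulated genes. It stayed negative, between -0.76 and -0.11, when any 1 library was left out. Gata3, a factor of T cells and other lineages, was pair-consistent at 8.51, 14.5 and 17.2 CPM in WT and 6.39, 8.68 and 12.3 CPM in deficient libraries. The T cell receptor gene Cd3e lay between 1.7 and 9.2 CPM over the 6 libraries. Epx, a granule enzyme of eosinophils, measured 158, 106 and 101 CPM in WT and 99.5, 67.5 and 80.1 CPM in deficient libraries, without overlap. Its granule partner Prg2 lay at 341, 229 and 282 CPM in WT and 233, 194 and 178 CPM in deficient libraries. Of 20 mast cell, basophil and eosinophil genes, 2 were lower and 0 higher in all pairs, against 12.4% and 11.1% of all genes tested. Their median log2 fold change was -0.33, and the pair medians were -0.68, -0.04 and 0.02.

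Macrophage genes leaned the other way. Of 20 tested, 2 had a negative log2 fold change, against 50.1% of all genes tested, and 0 were lower and 9 higher in all pairs, against 12.4% and 11.1%. The median was 0.27, with 0.19, 0.21 and 0.37 in the pairs, and it turned negative, to as low as -0.12, without WT replicate 1 or deficient replicate 2. Adgre1, which encodes the F4/80 antigen, measured 25.4, 32.4 and 25.1 CPM in WT and 38.6, 32.6 and 42.1 CPM in deficient libraries, and was the member with an unadjusted p under 0.05 in the plain fit, at 0.047. Cd163, a receptor for haemoglobin complexes, measured 2.1, 57.3 and 27.4 CPM in WT and 3.0, 69.9 and 63.8 CPM in deficient libraries, so that the replicate numbers differed far more than the genotypes. The summed CPM of the list was 820 to 1438 in WT and 825 to 1620 in deficient libraries. Adgre1 and Cd163 were picked after their values were seen.

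Among the named higher genes, few share a known role. Vill measured 25.2, 21.2 and 16.0 CPM in WT and 51.4, 30.1 and 26.4 CPM in deficient libraries, without overlap, and had a log2 fold change of 0.78 with a standard error of 0.29. Erbb3, a receptor of the EGF receptor family, measured 4.91, 4.78 and 4.15 CPM in WT and 10.2, 9.08 and 7.39 CPM in deficient libraries, also without overlap and with an unadjusted p of 0.00759 in edgeR. Olfm4, a granule protein of a subset of neutrophils, measured 23.2, 9.79 and 1.51 CPM in WT and 32.5, 13.5 and 18.0 CPM in deficient libraries, and its groups overlapped. Rps4l, annotated as a transcribed processed pseudogene of the ribosomal protein S4 family, measured 12.9, 8.53 and 11.3 CPM in WT and 25.3, 26.7 and 17.1 CPM in deficient libraries. Its groups did not overlap either, and how reads were shared with its near-identical relative Rps4x is not stated.

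The other named higher genes lay near the level minimum of 5 CPM. Asah2, a ceramidase, Abcc3, a transporter of conjugated anions, and Gstm4, a glutathione transferase, had log2 fold changes of 0.71, 0.58 and 0.63; that of Gstm4 became -0.085 without deficient replicate 1. Cdk5rap1, which modifies mitochondrial transfer RNA, had 0.86, and Tdrkh, Slc35f5 and Map10 had 0.58, 0.53 and 0.70. Nefh, a neurofilament subunit, was the low-level gene on the other side with the clearest separation: 19.3, 24.0 and 23.4 CPM in WT and 8.28, 8.55 and 12.1 CPM in deficient libraries. The log2 fold change of Nefh was -1.20 with a standard error of 0.23 and an unadjusted p of 0.000651 in edgeR. Among all of these genes Nefh, Erbb3, Vill, Rps4l and Tdrkh had groups that did not overlap.

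**Figure D5:**
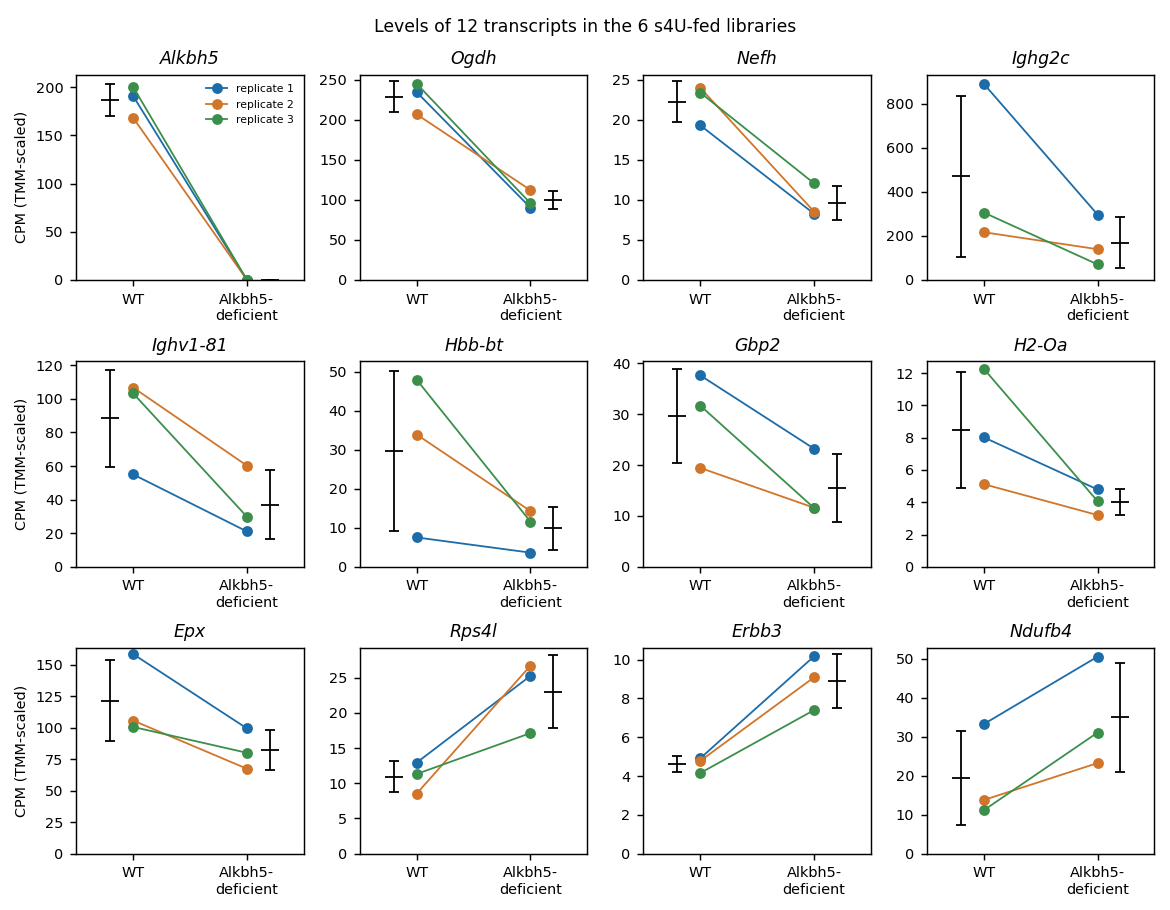
Level (CPM, y axis from 0) of 12 named transcripts in the 6 fed libraries, with a line joining each same-numbered pair and bars for the mean ± SD of each group (n = 3). Ogdh separates at 207 to 245 against 90.3 to 112 CPM, and for Ighg2c, Ighv1-81, Hbb-bt, Gbp2 and Ndufb4 the groups overlap although every line runs one way.

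The unlabelled libraries, which played no part in the choice of genes, hold 1 library per genotype and allow no test. Of the pair-consistent lower genes other than Alkbh5, 181 had at least 20 counts there, and 124 of them (68.5%) were lower in the deficient library, against 50.1% of the 13440 genes with such counts. Of the higher genes, 105 of 164 (64.0%) were higher there, against 49.9%. At 5 CPM or more the shares were 52 of 68 (76.5%) and 35 of 47 (74.5%). Without the immunoglobulin genes the lower share was 39 of 55 (70.9%). Ogdh measured 177 CPM in the unlabelled WT and 114 CPM in the unlabelled deficient library, a log2 ratio of -0.63, and Gbp2 32.0 and 16.1 CPM. Each unlabelled library held counts of both Xist and the Y-linked Ddx3y, so each holds RNA of both sexes, and the labels do not say whether fed and unlabelled cells share animals.

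How far genes stayed equal was bounded by asking whether the 95% interval of a log2 fold change lay within 1.5-fold either way. This held for 3615 genes (25.7%), and for 5120 (36.4%) with the replicate block. Leaving out 1 library took the count to between 1313, without deficient replicate 2, and 4337, without WT replicate 3. The bound depends on level: 0 of 3574 genes under 5 CPM met it, 8.88% of those from 5 to 20 CPM, 43.1% from 20 to 100 CPM and 56.4% at 100 CPM or more. Of the 14051 genes, 1495 (10.6%) had ratios within 0.2 in all 3 pairs. A gene that was not held is one that these libraries do not bound, and it was not thereby shown to differ.

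In the lists for core cell work, well over 25.7% of the members were held. Of the tRNA synthetase genes, which charge transfer RNAs with amino acids, 16 of 21 were held, although 20 of 21 had a negative log2 fold change, with a median of -0.08. Eprs averaged 394 ± 75.1 CPM in WT and 390 ± 68.9 CPM in deficient libraries (SD, n = 3). Translation factors held 28 of 43, with the elongation factor Eef1a1 at 4733 ± 518 and 4646 ± 722 CPM. Cytosolic ribosomal protein genes held 53 of 86, and Rpl4 averaged 1672 ± 141 CPM in WT and 1642 ± 93.2 CPM in deficient libraries. These lists sit at high levels, where the interval is narrow.

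The same was seen for splicing, replication and protein turnover. Spliceosome genes held 27 of 42, with the central scaffold Prpf8 at 605 ± 47.3 CPM in WT and 597 ± 30.8 CPM in deficient libraries (SD, n = 3). Genes of DNA replication held 30 of 47, and Mcm3, part of the replicative helicase, averaged 471 ± 9.35 and 475 ± 33.6 CPM. Proteasome genes held 23 of 38, and chaperones of the cytosol 13 of 23, with Hsp90ab1 at 5697 ± 462 and 5419 ± 193 CPM. The genes of RNA decay were held in 16 of 30 for deadenylation and in 16 of 26 for the exosome and nonsense-mediated decay. Cnot3, a scaffold of the CCR4-NOT deadenylase, had a log2 fold change of 0.07 with an interval of -0.29 to 0.43.

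Some genes that set blood cell identity were held within 1.5-fold as well. Myb, needed for progenitor growth, averaged 340 ± 29.8 CPM in WT and 344 ± 49.5 CPM in deficient libraries (SD, n = 3), and Ikzf1, a lymphoid and myeloid regulator, 258 ± 19.3 and 263 ± 11.6 CPM. Elane, which encodes neutrophil elastase, averaged 774 ± 189 and 769 ± 140 CPM. The groups of Kit also overlapped: it measured 77.8, 78.3 and 69.8 CPM in WT and 77.1, 78.5 and 82.8 CPM in deficient libraries. The lists for stem and progenitor markers, B cells, T and NK cells, late neutrophil granules, monocytes, macrophages, mast cells with basophils and eosinophils, erythroid cells, MHC class II and stroma had at most 1 member held each, so for them no statement of equality can be made. Of the neutrophil primary granule genes, 5 of 13 were held.

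RNA polymerase I and nucleolar genes, which make ribosomes, combined a shared direction with a small size. Of 34 tested, 13 were lower and 0 higher in all 3 pairs, against 12.4% and 11.1% of all genes tested. None of the 34 was pair-consistent at 0.3, against 1.46% lower and 1.28% higher of all genes. The list does not include Ddx56, the nucleolar helicase gene named above as pair-consistent and lower. The median log2 fold change was -0.10, with -0.13, -0.07 and -0.13 in the pairs, and it stayed negative, between -0.06 and -0.18, when any 1 library was left out. Of these genes 18 were held within 1.5-fold. Ncl, the abundant nucleolar protein nucleolin, averaged 3128 ± 428 CPM in WT and 2840 ± 433 CPM in deficient libraries (SD, n = 3).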

How the data were processed

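RNA counts per gene were analysed in the 6 s4U-fed libraries, 3 per genotype, with the 2 unlabelled libraries for direction only. The authors deposited 1 file per library with raw read counts per gene, as whole numbers without normalization. The submitters' processing notes name DESeq2, STAR, HTSeq, Picard, HISAT2 and cutadapt, without versions or roles, and the builds GRCm38 and mm10. The strand setting used in counting is not stated, and genes that overlap or lie antisense to each other cannot be told apart where it was off. The RNA had passed through chemistry that recodes s4U, per the labels' protocols; how recoded bases affect the counts was not tested. The 928 entries that name no gene stayed out; reads in no gene made up 37.6% to 50.3% of the counts of a fed library.

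Counts were fitted with edgeR 4.0.16 in R 4.3.3 (TMM normalization, robust quasi-likelihood, Benjamini-Hochberg adjustment over all genes tested, threshold 0.05), on genes with at least 1 CPM in at least 3 libraries. Standard errors were the size of a log2 fold change divided by the root of F, and 95% intervals used the fit's degrees of freedom. CPM values were TMM-scaled; pair ratios were differences of log2 CPM with a prior count of 2. The analysis was checked on simulated data without replicate effects. Of changes of 1 on the log2 scale, the plain edgeR fit called 68%, with 9 false calls. With the block it called 65%, with 10 false calls. The differences between replicates seen in the real libraries were not part of that check. Library sizes limit precision: log2 fold changes had a median standard error of 0.50 under 5 CPM and 0.19 at 100 CPM or more. Coordinates and gene classes came from GENCODE M21, which matched 13880 of the tested genes.

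The labels give the replicate numbers. Deviations from group means correlated between same-numbered libraries over 14051 genes at r = 0.66, 0.27 and 0.17 for numbers 1, 2 and 3, so the replicate number was used as a block beside the plain fit. WT replicate 2 with deficient replicate 3 and the reverse correlated at 0.34, so the pairing of numbers 2 and 3 is less sure. Both libraries numbered 2 held Xist RNA and no Ddx3y, and those numbered 1 or 3 held Ddx3y RNA with 0 to 2 Xist counts. Every pair of libraries differed by more than sampling noise, with a chi-square of 5.92 or more per gene.

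Named genes were Alkbh5, Ogdh and any gene past the threshold. Added were 12 lower and 12 higher genes with a mean of at least 5 CPM, ranked by the smallest of their 3 pair ratios, without predicted genes, pseudogenes and small RNAs. From each of 64 lists came up to 3 pair-consistent members at 5 CPM or more and up to 2 members with all pair ratios within 0.2 and an interval within 1.5-fold. The genes and lists were chosen with earlier results of these data known. Alternatives were RLE scaling, no low-count filter, edgeR's default filter, DESeq2 1.42.0 with and without the block, limma 3.58.1 voom with sample weights and the block, removal of Gm26917 and Gm42418, each library or pair left out, and other cuts for pair consistency. Counts of members in each pair alone were chosen after seeing the data. Recoded bases and RNA half-lives were not analysed here.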

Additional observations from a re-analysis of the deposited data

Results flagged for a closer look

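Of 35 named genes compared with the unlabelled pair, 4 were higher in all 3 fed pairs and lower in the unlabelled deficient library. Their log2 ratios there were -0.28 for Asah2, -0.60 for Gstm4, -0.14 for Slc35f5 and -0.44 for Map10. The unlabelled pair has 1 library per genotype, so the difference between fed and unlabelled cultures was not tested. Gstm4 had 44 and 34 counts in the unlabelled WT and deficient libraries, Map10 38 and 33, Asah2 47 and 46, and Slc35f5 59 and 64, before scaling by library size.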

How the results depend on the processing

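With the replicate block, the count of lower genes stayed 1 (Alkbh5) and that of higher genes 0, and 5120 genes were held within 1.5-fold against 3615. The lower count, 1 by edgeR, was 2 without the low-count filter, 2 by DESeq2, 7 by DESeq2 with the block and 7 by voom with the block. It ranged from 0 to 1 with 1 library left out (0 without any 1 WT library, where Alkbh5 no longer meets the filter). It was 6, 10 and 22 without pairs 1, 2 and 3. Alkbh5 does not meet the filter in these fits either and is not among their calls. The higher count, 0, was 1 by voom and 5, 3 and 3 without these pairs. Of these 2-pair calls 9 of 11, 5 of 13 and 12 of 25 were immunoglobulin genes. The held count was 7292 by voom, 1313 to 4337 with 1 library left out (moved by over 1.5 times by each but WT replicate 3), and 114, 2127 and 6977 without pairs 1, 2 and 3. The 205 pair-consistent lower genes became 394 at a cut of 0.2, 66 at 0.5, 69 at a mean of at least 5 CPM, and 482, 1158 and 641 without pairs 1, 2 and 3. The 180 higher genes became 332, 65, 47, and 521, 1142 and 516. Ogdh passed the adjusted threshold without the filter (-1.19, adjusted p = 0.00894), by DESeq2 (-1.19, 6.70e-07), DESeq2 with the block (-1.20, 3.49e-06) and voom (-1.25, 0.00530), and without pair 2 (-1.36, 0.000736) or pair 3 (-1.11, 0.00148); its adjusted p was 0.346 in the plain edgeR fit, 0.336 with the block, 0.166 without pair 1 and 0.95 to 1.00 with any 1 library left out. With 1 library left out, Gstm4 ranged from -0.085 (without deficient replicate 1) to 1.21 and Csf1 from -1.04 to 0.059 (without WT replicate 1). The cause of these differences was not tested, apart from the Alkbh5 filter. Other scalings moved the median log2 fold change of all genes by at most 0.013. Depth limits the bounds: 0 genes under 5 CPM were held.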

Other observations

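Some lists outside the account above had pair medians of one sign. Their counts stand against 12.4% of all genes tested that were lower and 11.1% that were higher in all 3 pairs. Of 24 cholesterol synthesis genes, 7 had a negative log2 fold change, and 1 was lower and 7 were higher in all 3 pairs; the pair medians were 0.12, 0.08 and 0.14, and the median over the 6 libraries, 0.12, became -0.09 without deficient replicate 1. Of 26 nucleotide synthesis genes, 21 had a negative log2 fold change, 6 were lower and 0 higher in all pairs, and the pair medians were -0.14, -0.08 and -0.27. Of 29 apoptosis regulators, 0 were lower and 6 higher in all pairs, with a median of 0.04. No member of these lists passed the adjusted threshold in edgeR.

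Other lists differed between the pairs by more than any shared shift. Replication-dependent histone genes had medians of 0.33, 0.09 and -0.19 in pairs 1 to 3, late neutrophil granule genes -0.62, -0.29 and 0.77, and small nucleolar RNAs 0.88, -0.04 and -0.73. Stromal and endothelial genes had 0.02, 0.13 and -1.11; Col1a1 measured 1139 CPM in WT replicate 3 and 378 CPM in deficient replicate 3.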
